A study of Mus musculus with 63 samples.

Results

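The crypts of the small intestine carry a set of transcripts used as markers of their stem cells, and 10 of them, chosen by name from the 24766 genes in the table, were followed here through mouse intestinal tumours: Lgr5, Olfm4, Ascl2, Smoc2, Rgmb, Sox9, Prom1, Bmi1, Cd44 and Ephb2. All 10 were measured in all 63 libraries and passed the minimum mean of 10 normalised counts in every comparison, with no value at 0.

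The libraries were poly(A) RNA from freshly dissected tumours of 2 Apchet;Confetti mice (Villin-CreERT2; Apc fl/+; R26R-Confetti), 1 female and 1 male, so that mouse and sex cannot be told apart. Cre was driven in the intestinal epithelium by the Villin promoter, and both animals, more than 8 weeks old, received 4 mg tamoxifen and 10 days later the mutagen ENU at 200 mg/kg. From each mouse 10 tumours had been cut by their differently coloured Confetti regions into a larger (major) and a smaller (minor) clone, which gave 20 pairs. A further 23 tumours were sequenced undivided, 13 of them male and 10 female in origin. All groups share the same genotype and treatment, and no untreated or normal tissue was part of the comparison. Segments of the small intestine are named SI10, SI20 and SI30 as the labels give them. The undivided tumours came from SI10 (12) and SI20 (11), and SI30 occurred only in 2 divided tumours of the female mouse. Some of the undivided tumours may hold more than 1 clone, and which ones was not taken into account here.

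Stem cells at the crypt base sit between Paneth cells and divide to renew the epithelium, and their state depends on WNT signalling through β-catenin. Loss of Apc, which normally brings β-catenin to destruction, leaves this pathway active without its ligand and gives the adenoma cell a crypt-base-like programme. The members encode proteins of different kinds. Lgr5 is a receptor for R-spondins, ligands that strengthen the WNT signal, and Rgmb is a co-receptor for bone morphogenetic proteins. Ascl2 and Sox9 are transcription factors, and Bmi1 is a subunit of a Polycomb repressive complex. Olfm4 and Smoc2 are secreted proteins. Prom1, Cd44 and Ephb2 are cell surface proteins, a membrane glycoprotein, a hyaluronan receptor and a receptor for ephrins.

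Lgr5 and Sox9 are the members whose levels followed each other in both settings tested below, and for that reason their promoters are shown. Each run is the 250 bases before the annotated start of the gene, read 5′ to 3′ on the strand of the gene from GRCm39, all in lower case because none of the letters searched for was found. Lgr5 lies on the minus strand and its window is chr10:115423686-115423935. Sox9 lies on the plus strand with the window chr11:112672759-112673008.
Lgr5: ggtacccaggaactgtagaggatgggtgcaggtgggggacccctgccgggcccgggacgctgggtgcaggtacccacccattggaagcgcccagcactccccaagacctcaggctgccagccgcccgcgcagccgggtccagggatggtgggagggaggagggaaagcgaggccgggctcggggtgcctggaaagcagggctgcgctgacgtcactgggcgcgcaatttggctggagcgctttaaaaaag
Sox9: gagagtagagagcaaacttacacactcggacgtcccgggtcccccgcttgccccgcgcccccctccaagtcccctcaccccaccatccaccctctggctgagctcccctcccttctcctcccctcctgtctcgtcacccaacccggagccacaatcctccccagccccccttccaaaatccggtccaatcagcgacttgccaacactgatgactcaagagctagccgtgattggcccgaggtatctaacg
The letters CTTTG followed by AA, TT, AT or TA, forms of the core that TCF and LEF factors bind, were searched on both strands. They were present in 0 of the 10 member windows and in 16.2% of the 21247 protein-coding windows of the same length. This background left out an autosome that holds no member, and took only genes with a canonical transcript. Guanine and cytosine made up 68.0% of the Lgr5 window and 62.4% of the Sox9 window. The windows start from the outermost annotated start of each gene. That of the canonical transcript lies 16170 bases further in for Olfm4, 435 for Rgmb, 347 for Bmi1 and 99 for Prom1, so that the Olfm4 window is not the promoter of its canonical transcript. The search describes these windows only and says nothing of more distant regulatory sequence.

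The tissue was checked against markers of other cell types before the members were compared. Epcam, an epithelial adhesion protein, was at 31001 to 74424 normalised counts in the 63 libraries. Fibroblast and muscle markers (8 genes) were present in every class, with a summed level of 1808 to 26119 in major clones, 1754 to 24590 in minor clones and 875 to 16942 in undivided tumours. Leukocyte markers (7 genes) summed to 2056 to 16945, 732 to 15455 and 1864 to 29878 in the same order. The ribosomal transcript Rn18s, which poly(A) selection should remove, took a median of 1.24% of the counts in major clones, 3.11% in undivided tumours and 6.19% in minor clones. Libraries summed to about 26140200 to 45909900 normalised counts. In such whole-tissue RNA, fewer cells of a type and less RNA per cell cannot be told apart.

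Lgr5 was at 249 normalised counts in the lowest major clone, 872 in the median and 2818 in the highest. In minor clones the same 3 values were 443, 850 and 2925, and in undivided tumours 115, 675 and 3081. The 3 classes overlapped over most of their range, with the lowest tumours among the undivided ones. Rgmb ran from 213 through a median of 462 to 1418 in major clones, from 238 through 455 to 1572 in minor clones and from 236 through 408 to 902 in undivided tumours.

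Among the transcription factors, Ascl2 had medians of 525 (242 to 1618) in major clones, 646 (298 to 2652) in minor clones and 613 (183 to 2134) in undivided tumours. Sox9 had medians of 2135 (747 to 4960), 1954 (871 to 3688) and 1700 (467 to 5189) in the same order. Bmi1, the chromatin regulator, was among the most even members, at 493 to 1143, 567 to 994 and 420 to 1294, with a coefficient of variation between 17.6% and 23.9% within a class.

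The secreted protein Olfm4 had its widest spread in minor clones. Its major clones lay between 1056 and 5801 normalised counts with a median of 2105, and its minor clones between 3.64 and 3823 with a median of 1092. Undivided tumours lay between 7.91 and 3700 with a median of 1429. The highest minor clone was thus 1049 times the lowest, against 5.49 times among major clones, and no major clone was near the lowest values of the other classes. Smoc2 stayed between 288 and 7033 in all libraries, with medians of 1660, 1532 and 1155 in major clones, minor clones and undivided tumours.

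Of the surface proteins, Prom1 had medians of 14128 (8301 to 26561), 14902 (5708 to 21279) and 11332 (4417 to 23890) in major clones, minor clones and undivided tumours. Cd44 was at 2344 to 8127 in major and 2653 to 7041 in minor clones, but reached down to 539 in undivided tumours. Ephb2 lay within 2556 to 5654, 2735 to 6095 and 1710 to 4889. These levels are scaled between libraries and not per length of transcript, so that they order samples of 1 gene and not the genes.

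**Figure D1:**
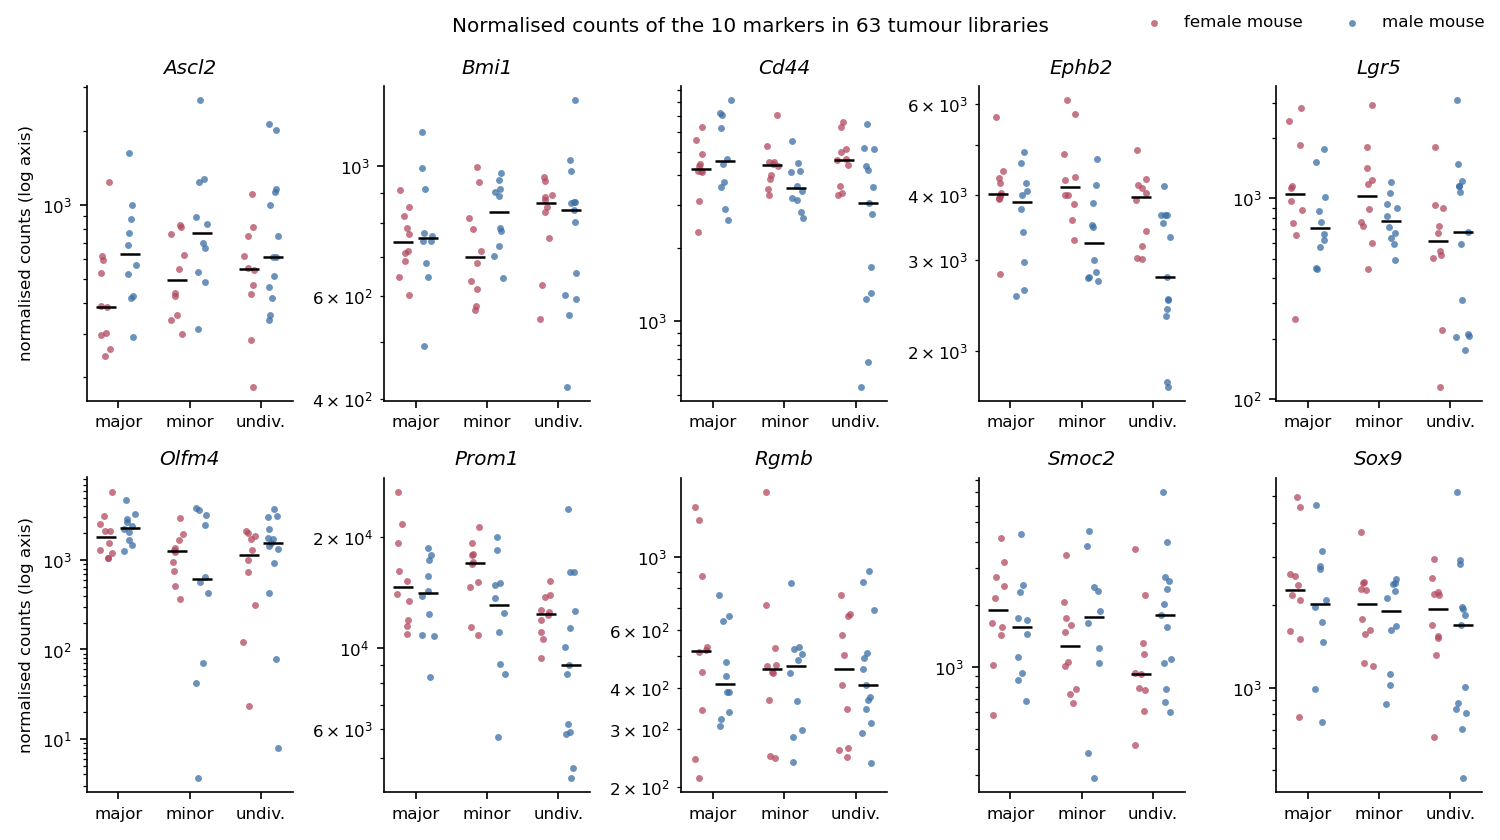
Normalised counts of the 10 members on a log axis in major clones (n = 20), minor clones (n = 20) and undivided tumours (n = 23); each point is 1 library, coloured by mouse, and the bars are medians of each mouse. Olfm4 spans 3.64 to 3823 in minor clones and 1056 to 5801 in major clones, while Bmi1 stays within 420 to 1294 in all 3 classes.

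The first question was whether the members differed between the clones of a tumour. None of the 10 passed the adjusted threshold of 0.05 in the comparison of major with minor clones, in which 1.14% of all genes were called. Olfm4 was the 1 member below an unadjusted p of 0.05, a limit that 22.4% of all genes passed. Its log2 difference was 1.58 (SE 0.57, n = 20 pairs) with a limma p of 0.0115 and an adjusted p of 0.114. The level was higher in the major clone in 11 of 20 tumours, 5 in the female and 6 in the male mouse.

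The mean difference of Olfm4 rested on a few tumours. Tumour 19 of the male mouse had 3.64 normalised counts in its minor and 4729 in its major clone, tumour 28 had 42.6 and 2674, and tumour 20 had 70.8 and 2055. Over all 20 tumours the difference ran from -1.50 to 9.99 on the log2 scale. Without these 3 tumours, a choice made after the values were seen, it was 0.63 with an adjusted p of 0.299. The mean was 0.76 in the female and 2.39 in the male mouse, a gap of -1.64 (SE 1.12) whose own limma test gave p = 0.158 and an adjusted p of 0.738. Rn18s took 14.2%, 7.05% and 3.48% of the counts in those 3 minor clones. Its part in the result was not tested beyond the fit that held Rn18s constant, in which the Olfm4 difference was 1.80 with an adjusted p of 0.507. With the fibroblast and muscle and the leukocyte markers held constant the difference was 0.81 with an adjusted p of 0.723.

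The other members had smaller estimates between clones. Ascl2 was higher in the minor clone in 14 of 20 tumours, with a log2 difference of -0.30 (SE 0.14) and an adjusted p of 0.229. Sox9 differed by 0.21 (SE 0.11, adjusted p = 0.280) and was higher in the major clone in 12 of 20. Smoc2 differed by 0.29 (SE 0.23, adjusted p = 0.484), also with 12 of 20 higher in the major clone. Lgr5 differed by 0.02 (SE 0.15, adjusted p = 0.963), although single tumours ran from -1.06 to 1.82. The remaining 5, Rgmb, Prom1, Bmi1, Cd44 and Ephb2, had differences between -0.02 and 0.16. In all, 8 of 10 members had an estimate above 0, against 51.8% of all genes. No member had a clone difference that differed between the mice at an unadjusted p of 0.05, a limit that 7.65% of all genes passed (0% after adjustment), and the nearest to it was Cd44 (-0.06 in the female and 0.38 in the male mouse, p = 0.0561 and adjusted p = 0.657 by limma).

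**Figure D2:**
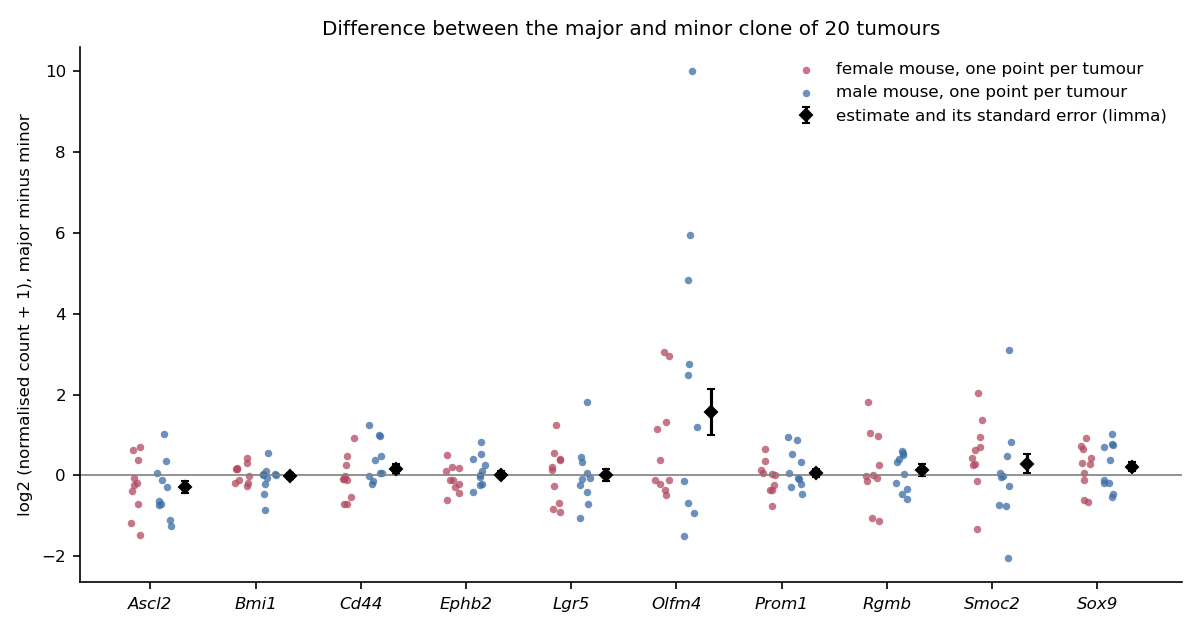
Log2 difference of major minus minor clone for each member; each point is 1 of 20 tumours, coloured by mouse, and the diamond with its bar is the limma estimate with its standard error. Points of Olfm4 run from -1.50 to 9.99, and those of the other members lie closer to 0.

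Related genes were counted in the same comparison. Of 14 WNT targets and feedback genes 0 were called, and 12 of 14 had an estimate below 0 with a median of -0.14, where the median of all genes was 0.0074. None of 8 other crypt base columnar genes (4 above 0) or 4 position +4 and reserve genes (2 above 0) was called. The same held for 14 binding partners and relatives of the members (8 above 0) and 6 fetal and regenerative genes (4 above 0). All 8 proliferation genes were above 0 with a median of 0.058, and 0 were called. Of all genes 51.8% were above 0. Differentiated lineages did hold calls, all of them higher in major clones. Sis, the sucrase-isomaltase of enterocytes, was higher by 1.10 (adjusted p = 0.0439), and the goblet cell products Clca1 and Spink4 by 0.70 (0.0465) and 0.63 (0.0238). Chgb, a granin of enteroendocrine cells, was higher by 0.89 (adjusted p = 0.0207). Fibroblast and muscle markers had a median difference of 0.62 with 7 of 8 above 0 and 0 called.

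A second question was whether a member's level in 1 clone followed that in the other clone of the same tumour. Over the 20 tumours, with each mouse centred on its own mean, this held for Sox9, with a Pearson r of 0.70 (permutation p = 0.00071, adjusted p = 0.0071 over 10 relations). Its Spearman rho was 0.58 (permutation p = 0.0083, adjusted p = 0.083). The r was 0.72 in the female and 0.69 in the male mouse, and 0.60 without the 2 tumours farthest from the median, where the adjusted p was 0.0908 and the relation no longer passed. No other member passed after adjustment. Lgr5 had an r of 0.55 (permutation p = 0.0274, adjusted p = 0.0686) and a rho of 0.38 (permutation p = 0.115, adjusted p = 0.231), with 0.73 in the female and 0.01 in the male mouse. Ascl2 had an r of 0.51 (permutation p = 0.0232, adjusted p = 0.0686) and a rho of 0.28 (permutation p = 0.245, adjusted p = 0.306), with 0.38 in the female and 0.62 in the male mouse. Olfm4 was the 1 member with a negative value, -0.43 (permutation p = 0.022, adjusted p = 0.0686, rho -0.38 with permutation p = 0.0943 and adjusted p = 0.231), which was -0.25 in the female and -0.68 in the male mouse. Both clones of a tumour share animal and, in all but 1 tumour, segment.

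Undivided tumours were then set against each class of clones, with the mouse as a term. No member passed the adjusted threshold against minor clones, where 3.7% of all genes were called, or against major clones, where 0.0121% were. At an unadjusted p of 0.05, 3 of 10 passed against minor clones (background 19.6%) and 3 of 10 against major clones (background 12%), and all 6 estimates were lower in undivided tumours. Both comparisons use the same 23 undivided tumours, and whole tumours differ from cut pieces in handling as well as in clonal make-up, which cannot be told apart.

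Prom1 was lower in undivided tumours by a log2 estimate of -0.40 (SE 0.15, limma p = 0.0140, adjusted p = 0.135) against minor clones and -0.46 (SE 0.15, p = 0.0035, adjusted p = 0.270) against major clones. Against minor clones it passed the threshold with quantile normalisation (-0.50, adjusted p = 0.0441) and with Rn18s held constant (-0.51, adjusted p = 0.0105). With Rn18s held constant 1455 of 16491 genes were called, against 610 in the reported fit. Ephb2 gave -0.22 (SE 0.096, adjusted p = 0.187) and -0.25 (SE 0.098, adjusted p = 0.348). Lgr5 gave -0.61 (SE 0.30, limma p = 0.0465, adjusted p = 0.247) and -0.63 (SE 0.32, p = 0.0564, adjusted p = 0.428). Olfm4 gave 0.17 (SE 0.70) against minor clones and -1.45 (SE 0.52, limma p = 0.0072, adjusted p = 0.320) against major clones. The fibroblast and muscle markers had a median of -0.71 in undivided tumours against major clones, with 8 of 8 below 0, and with these and the leukocyte markers held constant the Lgr5 estimate against major clones was -0.16.

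Of the receptors related to Lgr5, Lgr4 was lower in undivided tumours than in minor clones by -0.33 (SE 0.087, adjusted p = 0.0295). It was the only call among 15 tested binding partners and relatives of the members. The WNT targets had 0 calls of 14 against minor clones, with 13 of 14 below 0 and a median of -0.26. Calls among cell type markers in that comparison were Sis (1.17), Clca1 (0.97), Chga (0.93), Chgb (0.95), Cck (0.87) and the T cell gene Cd3e (0.94), all higher, and the endothelial gene Cdh5 (-1.12), lower. In their lists 6 of 7 enterocyte, 5 of 5 enteroendocrine and 6 of 6 tested leukocyte markers were above 0. The goblet cell list had 3 of 5 above 0 and the endothelial list 2 of 4. Against major clones 0 genes of any list were called. Rspo2 was not analysed here, and the other R-spondin genes had low counts, with Rspo1 listed at 0 in 45 libraries.

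**Figure D3:**
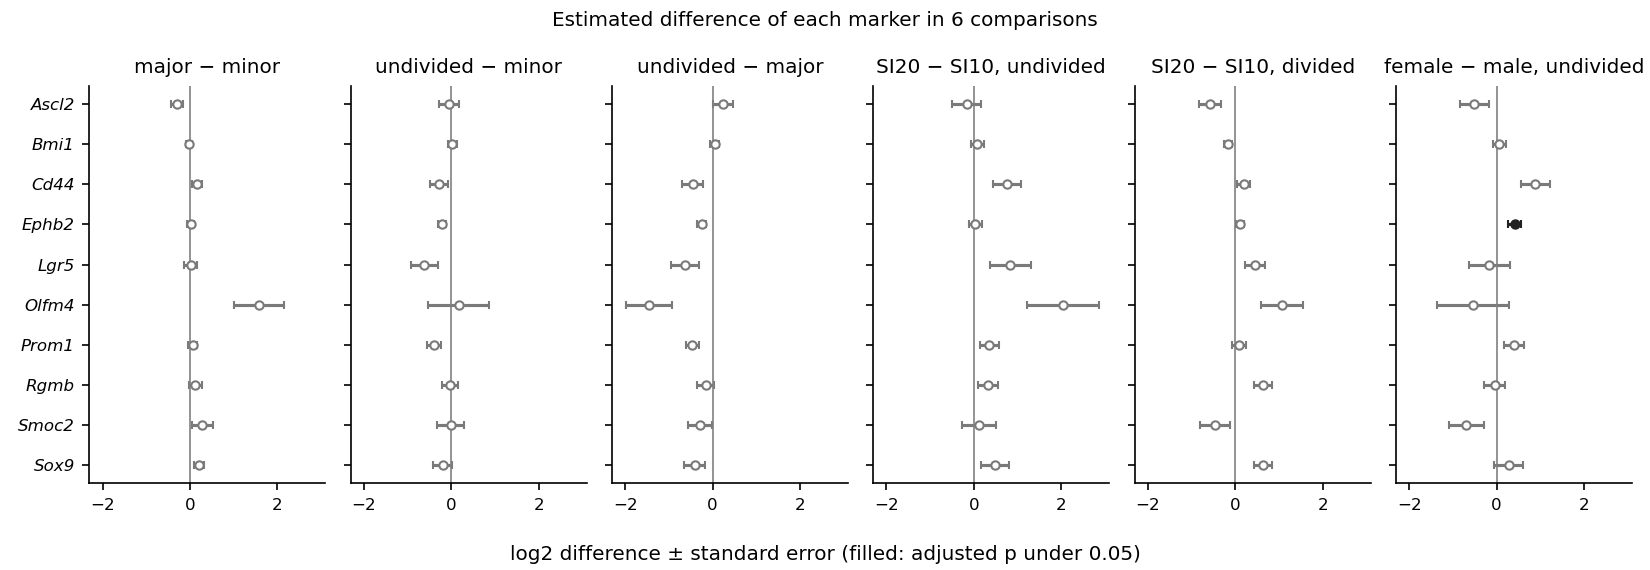
Log2 estimates of the 10 members in each comparison, with bars of 1 standard error from limma; the grey line marks 0 and filled points have an adjusted p under 0.05. The single filled point is Ephb2 in the female against the male mouse (0.41), and Olfm4 has the widest bars.

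The position along the intestine was compared within undivided and within divided tumours. No member was called between SI20 and SI10 in undivided tumours, where 0.17% of all genes were, or in divided tumours, where 0.28% were. Unadjusted, 2 of 10 members passed 0.05 in undivided tumours (background 7.62%) and 4 of 10 in divided ones (background 14.3%).

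Olfm4 in undivided tumours had a median of 828 in SI10 (7.91 to 3700, n = 12) and 1864 in SI20 (313 to 3093, n = 11). The ranges overlapped, and the 4 lowest tumours were all from SI10. The log2 estimate was 2.04 (SE 0.82, limma p = 0.0202, adjusted p = 0.587), and 0.72 without the 3 tumours below 100 normalised counts, which were left out after the values were seen. In the 17 divided tumours with both clones from SI10 or both from SI20, it was 1.08 (SE 0.48, adjusted p = 0.324). Cd44 had medians of 3461 in SI10 and 4965 in SI20 of undivided tumours, an estimate of 0.75 (SE 0.33, adjusted p = 0.603), and 0.19 in divided tumours.

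In divided tumours the members with the smallest p were Rgmb (0.64, SE 0.21, limma p = 0.0075, adjusted p = 0.230) and Sox9 (0.63, SE 0.21, p = 0.0078, adjusted p = 0.234), both higher in SI20. Ascl2 had the opposite sign (-0.57, SE 0.25, adjusted p = 0.322). In undivided tumours the Ascl2 estimate was -0.16, that of Sox9 0.49 and that of Rgmb 0.33.

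Lgr5 in undivided tumours had a median of 525 in SI10 and 1077 in SI20, with an estimate of 0.83 (SE 0.47, adjusted p = 0.688). The 2 mice differed in sign. The 5 lowest male tumours, at 177, 203, 205, 212 and 310 normalised counts, were all from SI10, and the male SI20 tumours lay between 591 and 3081. In the female mouse the lowest tumours, at 115 and 220, were from SI20, as was the highest at 1801. The SI20 minus SI10 difference was 1.96 in the male and -0.62 in the female mouse. The difference between the mice, tested after these values were seen, was -2.58 (SE 0.79, limma p = 0.0035, adjusted p = 0.8293). Sox9 had 1.16 in the male and -0.38 in the female mouse, with a difference of -1.54 (SE 0.58, adjusted p = 0.851). No member and 0% of all genes passed adjustment in that test, and 5.27% of all genes, including Lgr5 and Sox9, were below an unadjusted p of 0.05. Rn18s took 1.21%, 1.56%, 7.24%, 10.96%, 11.3%, 11.99% and 14.4% of the counts in the male SI10 tumours. In the male SI20 tumours it took 0.56%, 0.71%, 0.84%, 5.39%, 10.6% and 19.3%. Its part in the male segment differences of Lgr5 and Sox9 was not tested.

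Tumours of the 2 mice were compared directly among the undivided ones, with segment as a term. Here 19.1% of all genes were called, and 1 of 10 members was, a share below the background. Unadjusted, 2 of 10 passed against 33.3% of all genes. Ephb2 was at 3018 to 4889 normalised counts in the female (median 3974, n = 10) and at 1710 to 4159 in the male mouse (median 2788, n = 13). The ranges overlapped. Ephb2 was higher in the female by 0.41 (SE 0.15, adjusted p = 0.0489 by limma). The call lay at the threshold and was lost in 14 of 23 fits that left out 1 tumour, and the p-value describes the spread between tumours of these 2 animals. With Rn18s held constant the Ephb2 difference was 0.32 (adjusted p = 0.102).

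Cd44 was at 3320 to 6594 in the female (median 4628) and at 539 to 6501 in the male mouse (median 3067), a difference of 0.89 (SE 0.33, adjusted p = 0.0587). Its spread in the male mouse came from 5 tumours, numbers 15, 5, 17, 2 and 18, at 539, 682, 1236, 1314 and 1674, below the next at 2776. The same tumours were low in Sox9 (467 to 1005), and Prom1 was between 4417 and 8982 in them. Smoc2 ranged there from 1084 to 7033, the highest of any library. Rn18s took 10.96% to 19.3% of the counts in these 5 tumours and 0.56% to 10.6% in the other male ones, and with Rn18s held constant the Cd44 difference was 0.57 (adjusted p = 0.102).

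Genes of the other lists were counted in the same comparison. All 14 WNT targets had estimates above 0 in the female, as did 55.4% of all genes, with a median of 0.63 (0.052 for all genes). Of these 4 were called: Bambi (0.95), Ccnd1 (0.88), Znrf3 (0.79) and Myc (0.56). Igfbp4 (0.996) was called among the other crypt base columnar genes, of which 5 of 8 were above 0. Mex3a (1.06) was called and was the only 1 of 4 position +4 and reserve genes above 0, in a list with a median of -0.24. Ring1 (0.62) was the 1 call among 15 tested binding partners and relatives of the members, of which 9 were above 0. All 6 fetal and regenerative genes were above 0 with a median of 1.01, and 2 were called, among them Ly6a (1.66). Of 8 proliferation genes 7 were above 0 and 1, Top2a (0.67), was called. All 7 enterocyte markers were below 0 and 5 were called, among them Fabp2 (-1.66), Alpi (-1.49), Sis (-1.32) and Apoa1 (-1.30). Clca1 (-1.40), Tff3 (-0.94) and Cck (-1.05) were called lower too, with 4 of 5 goblet cell and 5 of 5 enteroendocrine markers below 0. Endothelial markers Cdh5 (1.91), Kdr (1.27) and Vwf (1.04) were higher. Enterocyte levels moved with the animal, and their part in the Ephb2 and Cd44 values was not tested.

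A further question was whether the members moved together. In the 23 undivided tumours, centred by mouse, Lgr5 followed Sox9 with a Pearson r of 0.73 (permutation p = 0.00022, adjusted p = 0.00198 over 9 relations) and a Spearman rho of 0.70 (permutation p = 0.00099, adjusted p = 0.00891). The r was 0.88 in the female and 0.68 in the male mouse, and 0.58 without the 2 farthest tumours (adjusted p = 0.0726 by permutation). Lgr5 also followed Rgmb, with an r of 0.53 (permutation p = 0.0108, adjusted p = 0.0486) and a rho of 0.58 (permutation p = 0.00424, adjusted p = 0.0191), with 0.43 in the female, 0.60 in the male mouse and 0.48 without the 2 farthest tumours (adjusted p = 0.0726 by permutation). With 2 tumours fewer neither passed after adjustment. The other 7 members did not pass, including Ascl2 at -0.19 and Olfm4 at 0.38.

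The same relation was computed on the differences between clones, where the tumour, the animal and mostly the segment cancel. The Lgr5 difference followed the Sox9 difference over 20 tumours with an r of 0.68 (permutation p = 0.00098, adjusted p = 0.00882), a rho of 0.60 (permutation p = 0.00658, adjusted p = 0.0592) and an r of 0.83 in the female and 0.55 in the male mouse. Without the 2 farthest tumours r was 0.54 and did not pass (adjusted p = 0.226 by permutation). With Cd44 the r was 0.59 (permutation p = 0.00667, adjusted p = 0.03) but the rho was 0.42 (permutation p = 0.0789, adjusted p = 0.206), and r was 0.27 without the 2 farthest tumours, so that this relation rested on them. It was 0.72 in the female and 0.47 in the male mouse.

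Lgr5 was then set beside markers of other states, with 7 relations in each setting. Notum, a secreted WNT antagonist, followed Lgr5 in undivided tumours with an r of 0.72 (permutation p = 0.00016, adjusted p = 0.00112) and a rho of 0.68 (permutation p = 0.00067, adjusted p = 0.00469). The r was 0.75 in the female and 0.72 in the male mouse, and 0.66 without the 2 farthest tumours. In the clone differences Notum gave an r of 0.55 (permutation p = 0.0116, adjusted p = 0.0406) and a rho of 0.55 (permutation p = 0.0157, adjusted p = 0.0549), with 0.63 and 0.49 in the mice and 0.46 without the 2 farthest tumours, where it did not pass (adjusted p = 0.264 by permutation). Axin2, a feedback inhibitor induced by WNT, followed Lgr5 in the clone differences with an r of 0.76 (permutation p = 0.00021, adjusted p = 0.00147) and a rho of 0.65 (permutation p = 0.00165, adjusted p = 0.0115), with 0.59 and 0.87 in the mice and 0.62 without 2 tumours. In undivided tumours Axin2 had an r of 0.28 and did not pass. The proliferation gene Mki67, the Paneth cell gene Lyz1, the goblet cell gene Muc2 and the fetal genes Anxa1 and Clu did not pass in either setting.

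Levels of other cell types moved with some members. Over the 23 undivided tumours and 40 relations, the fibroblast and muscle list followed Sox9 (r 0.74, permutation p = 0.00026, adjusted p = 0.0052, rho 0.78, permutation p = 0.00014, adjusted p = 0.0048). It also followed Rgmb (r 0.71, permutation p = 0.00013, adjusted p = 0.0052, rho 0.70, permutation p = 0.00024, adjusted p = 0.0048). The r was 0.51 and 0.81 in the female and the male mouse for Sox9 and 0.63 and 0.79 for Rgmb, with 0.74 and 0.68 without the 2 farthest tumours. Lgr5 had an r of 0.53 with the same list (permutation p = 0.0149, adjusted p = 0.0711) and a rho of 0.59 (permutation p = 0.00638, adjusted p = 0.0462). It was 0.33 in the female and 0.61 in the male mouse. Olfm4 (0.57), Cd44 (0.62) and Ascl2 (-0.57) likewise passed by rho with that list and not by r, each with an adjusted permutation p of 0.0462. The part of these cells in the relations of Lgr5 was not tested. Enterocyte markers ran against Ascl2 (r -0.63, permutation p = 0.00101, adjusted p = 0.0123, rho -0.59, permutation p = 0.00324, adjusted p = 0.0432), with -0.73 and -0.58 in the mice and -0.66 without 2 tumours. They followed Olfm4 by r (0.68, permutation p = 0.00123, adjusted p = 0.0123) but not by rho (0.39, permutation p = 0.0663, adjusted p = 0.243). That relation was 0.62 and 0.78 in the mice and 0.38 without the 2 farthest tumours, on which it rested.

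**Figure D4:**
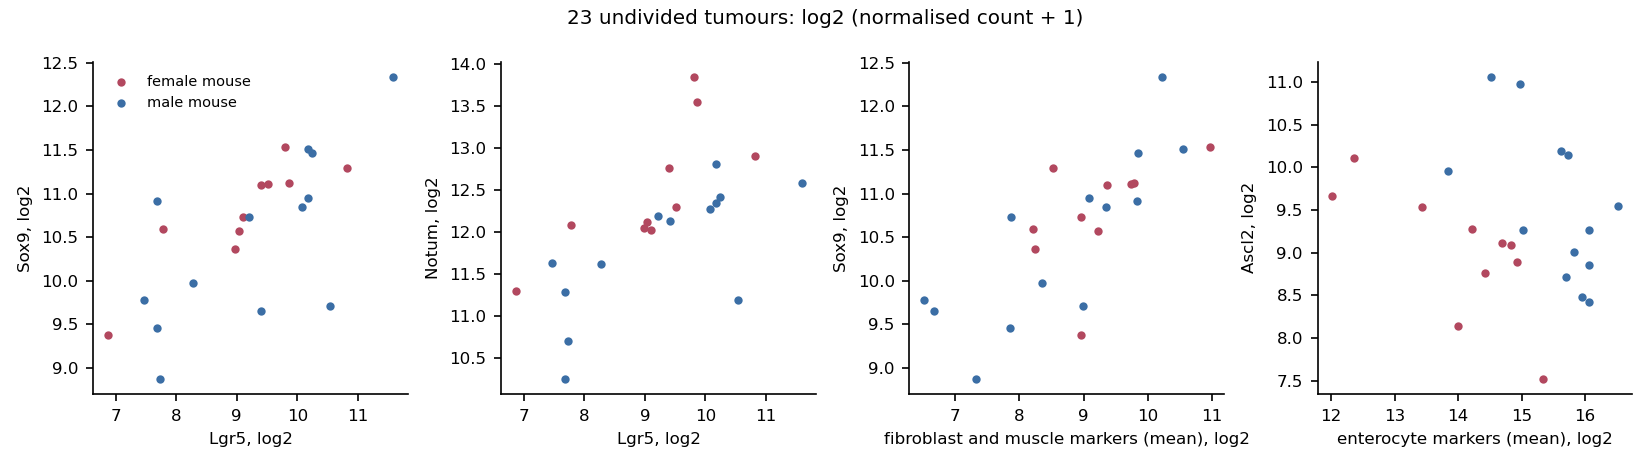
Log2(normalised count + 1) in the 23 undivided tumours, each point 1 tumour coloured by mouse: Sox9 and Notum against Lgr5, Sox9 against the mean of the fibroblast and muscle markers, and Ascl2 against the mean of the enterocyte markers. The first 3 panels slope upwards (r of 0.73, 0.72 and 0.74 after centring by mouse) and the last downwards (-0.63).

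All 45 pairs of members were described in the same way. By sign, r was above 0 in 27 pairs in undivided tumours, 22 in major clones and 28 in minor clones, with medians of 0.12, -0.02 and 0.10. In each of the 3 classes Sox9 was positive with Lgr5 (0.50 to 0.85), Rgmb (0.62 to 0.78), Prom1 (0.61 to 0.72) and Cd44 (0.46 to 0.79), and Cd44 with Ephb2 (0.54 to 0.68). Ascl2 stood on the other side, negative in each class with Rgmb (-0.66 to -0.47), Sox9 (-0.62 to -0.43), Prom1 (-0.62 to -0.33) and Olfm4 (-0.43 to -0.39). It was positive with Smoc2 (0.37 to 0.68). In the clone differences Ascl2 gave -0.51 with Rgmb and 0.71 with Smoc2. With Sox9 it gave -0.22 there, with Olfm4 -0.15 and with Prom1 0.07, so that these negative values were smaller or absent. Sox9 stayed positive in the clone differences with Lgr5 (0.68), Rgmb (0.53), Prom1 (0.51) and Cd44 (0.78), and Cd44 gave 0.28 with Ephb2. Major and minor clones share tumours, and all classes share the 2 animals.

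**Figure D5:**
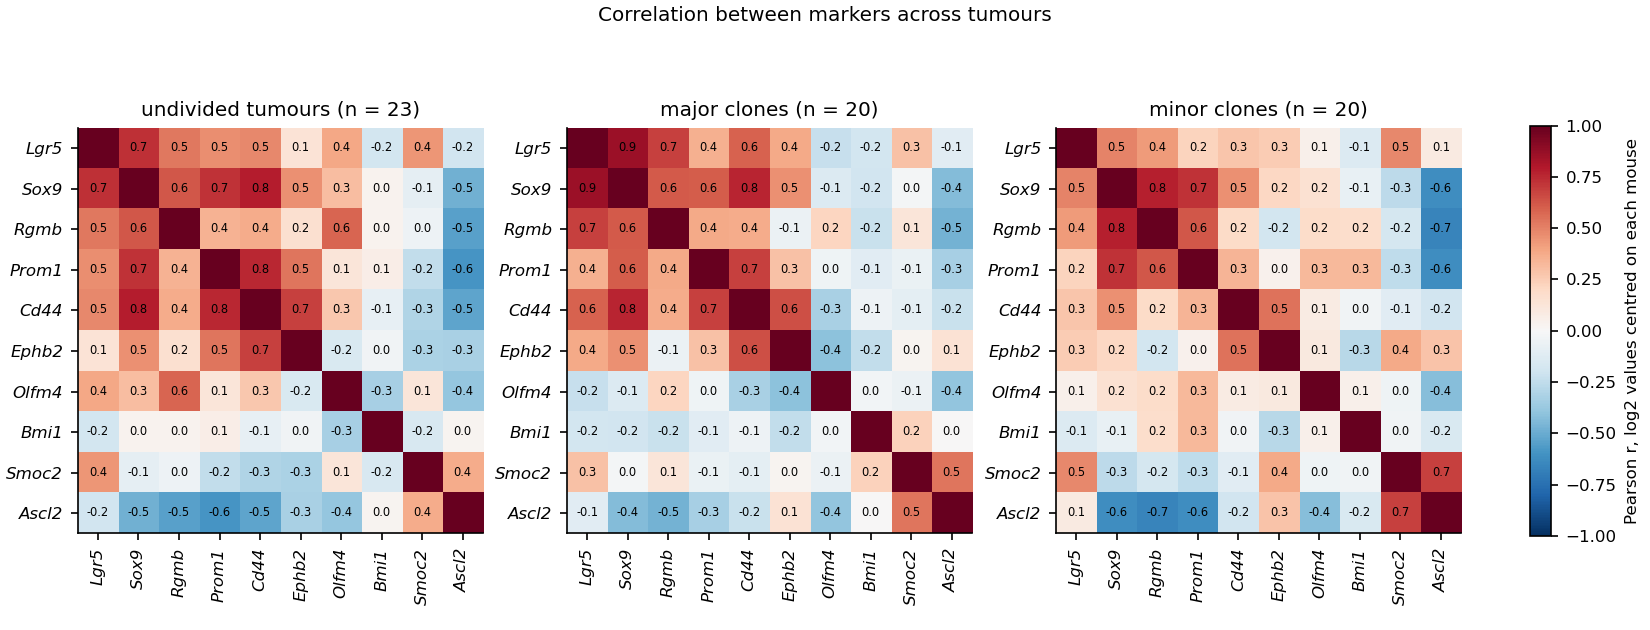
Pearson r between members over log2 values centred by mouse, in undivided tumours (n = 23), major clones (n = 20) and minor clones (n = 20); the colour scale runs from negative to positive r. Sox9 is positive with Lgr5, Rgmb, Prom1 and Cd44 in all 3 panels, and Ascl2 is negative with Rgmb, Sox9 and Prom1.

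Among 11737 genes with a mean of at least 100, those nearest in pattern to 3 members were ranked over the 63 libraries after the mean of each mouse and class was removed. Nearest to Lgr5 were Cblb, Bmp7 and Lef1, each with an r of 0.81, and Sox9 ranked 19 with 0.73. Nearest to Olfm4 were Bmp3 (0.87), Slc1a1 (0.79) and Ces1e (0.72). Nearest to Cd44 were Samd5 (0.90), Tns4 (0.85) and Spred2 (0.85). These values describe the 63 libraries, of which clones of 1 tumour are not independent, and carry no test.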

How the data were processed

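The authors aligned reads of a stranded mRNA preparation to GRCm39, estimated gene abundance and scaled it between libraries. Per the processing notes of the authors, the tools were FastQC 0.11.9, Trimmomatic 0.39, STAR 2.7.7a, Picard 2.27.3, Salmon 1.9.0 and DESeq2. The deposited signal values, called normalised counts here, are not whole numbers and keep no library depth, so that count models were not used and a scaling fault would pass into every value. The class of a clone is not in the sample labels. It was taken by sample name from the source data of the study, and the labels give tumour, mouse and segment. Nothing else was taken from those data.

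Values were analysed as log2(value + 1) where the average of a gene in the compared libraries reached 10, with limma 3.58.1 in R 4.3.3 (eBayes with trend) and Benjamini-Hochberg adjustment over all genes tested at 0.05. Fold changes are on that scale and understate change in low genes. Clones were paired because both pieces come from the same tumour. Deviations of paired clones had a median r of 0.21 (-0.1 to 0.56) and exceeded 0.1 in 16 of 20 tumours, and no 2 libraries held identical values. Among minor clones of the same mouse, 8 of 20 major clones were closest to their own. Correlations used two-sided tests with 100000 permutations within mice (scipy 1.17.1, numpy 2.4.6), and p-values measure the spread between tumours of 2 animals. Fits were also run on simulated data with noise drawn independently for each gene, which cannot show their error rates in these libraries. Promoters were read from the genome with Gencode M39. All members are named, other list genes only where called (at most 4 per list and comparison by smallest p), and the 3 genes nearest in pattern to Lgr5, Olfm4 and Cd44. Members and lists were chosen with earlier results of these data known. Alternatives changed the pseudocount, filter, scaling, trend, block and covariates, the mouse, the segments or single tumours. Some results of the gene lists are not reported here.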

Additional observations from a re-analysis of the deposited data

Results flagged for a closer look

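The highest or lowest value of a member was checked against the others of its group by Dixon's criterion. Groups were a class within a mouse, or the clone differences within a mouse, with at most 10 values. The male undivided tumours (n = 13) were therefore not checked. Of 70 groups 12 (17.1%) exceeded it, all of them at the high end. Chance exceeds it in about 1 of 20 groups of normally distributed values, which does not apply to these levels, since normalised counts are skewed to the right. On the log2 scale 2 of the 70 groups exceeded it, 1 at the high and 1 at the low end. Several of the tumours recur, so that the 12 are not independent, and the cause was not tested for any of them.

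Among the female undivided tumours, tumour 10 had 1801 normalised counts of Lgr5, with the next at 926. The clone difference of Lgr5 in tumour 29 of the male mouse was 1.82 on the log2 scale, with the next at 0.45. Olfm4 was at 5801 in the major clone of female tumour 22, the tumour whose clones carry different segment labels, with the next at 3090. In the major clone of female tumour 29 Ascl2 was at 1233, with the next at 622.

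Tumour 19 of the male mouse stood out in 3 groups. Its Ascl2 level was 1618 in the major clone, with the next at 994, and 2652 in the minor clone, with the next at 1274. Smoc2 in its major clone was at 4390, with the next at 2501. The minor clone of this tumour was also the library with the lowest Olfm4 level, at 3.64.

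The minor clone of female tumour 27 stood out in 3 members. Smoc2 was at 3457 with the next at 2058, Rgmb at 1572 with the next at 711 and Sox9 at 3688 with the next at 2440. Rgmb in the minor clone of male tumour 25 was at 833, with the next at 530, and Cd44 in the minor clone of female tumour 30 at 7041, with the next at 5263.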

How the results depend on the processing

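No member passed the adjusted threshold in any alternative for major against minor clones, undivided tumours against major clones, either comparison of segments or the clone difference between mice. Fitting the clones without the tumour as a block, the paired analysis undone, also gave 0 calls among the 10 members. Over the whole table that unpaired fit called 0 genes, against 188 in the paired fit. Against minor clones 1 member, Prom1, was called with quantile normalisation and with Rn18s held constant. Between the mice 0 members were called with a pseudocount of 0.1, without a filter on low values, without the mean-variance trend, with Rn18s held constant and without libraries under 100 normalised counts of Olfm4, 2 were called (Ephb2 and Cd44) with quantile normalisation and with equal sums, and leaving out 1 tumour in turn gave 0 to 2. Numbers of genes called over the whole table moved more. Between the mice 3154 of 16511 genes were called in the reported fit and 4355 with equal sums. Against 188 for the clones, other settings gave 0 to 344, and leaving out 1 tumour gave 25 (tumour 20 of the male mouse) to 859 (tumour 19 of the female mouse). Against 610 for undivided tumours and minor clones, other settings gave 0 to 1455, the latter with Rn18s held constant, where Prom1 was called. The causes were not tested. Alternatives that dropped libraries by Olfm4 level were chosen after the data were seen, as was the test of the segment difference between mice.

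Relations of Lgr5 with other members in undivided tumours that passed numbered 2, against 1 after quantile normalisation, 5 with equal sums, 1 in the female and 0 in the male mouse, and 0 without the 2 farthest tumours. In clone differences 2 passed, against 1 in the female and 0 in the male mouse and 0 without 2 tumours. With markers of other states 1 passed in undivided tumours, against 0 in the female mouse, and 2 in clone differences, against 0 in the female mouse, 1 in the male mouse and 1 without 2 tumours. Of relations with cell type lists 4 passed, against 7 with equal sums and 0 in the female mouse. Of relations between clones 1 passed, against 0 in either mouse and 0 without 2 tumours. Fits within 1 mouse hold fewer tumours.

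None of the following values had passed the threshold in the reported fit or relation. With SI10 and SI20 only, log2 estimates changed sign for Lgr5 (-0.014) in major minus minor clones, for Ascl2 (0.0036) in undivided tumours minus minor clones. With library sums made equal, log2 estimates changed sign for Bmi1 (-0.069) in undivided tumours minus minor clones, for Bmi1 (-0.041) in undivided tumours minus major clones, for Lgr5 (0.034) and Rgmb (0.16) in female minus male in undivided tumours, for Lgr5 (-0.016) in the clone difference of female minus male. With library sums made equal, r changed sign for Lgr5 with Bmi1 at 0.085, Lgr5 with Anxa1 at 0.070, Lgr5 with Lyz1 (clone differences) at 0.031, Lgr5 with Anxa1 (clone differences) at 0.076, Smoc2 with fibroblasts and muscle at 0.014, Bmi1 with fibroblasts and muscle at 0.071 and Cd44 with leukocytes at 0.033. As the median difference beside the exact Wilcoxon test, log2 estimates changed sign for Lgr5 (-0.0046), Bmi1 (0.0035) and Ephb2 (-0.011) in major minus minor clones. In the female mouse alone, log2 estimates changed sign for Prom1 (-0.044), Bmi1 (0.048), Cd44 (-0.060) and Ephb2 (-0.081) in major minus minor clones, for Olfm4 (-0.78), Ascl2 (0.016) and Cd44 (0.060) in undivided tumours minus minor clones, for Cd44 (0.12) in undivided tumours minus major clones, for Lgr5 (-0.62), Ascl2 (0.19), Smoc2 (-0.31), Rgmb (-0.073) and Sox9 (-0.38) in SI20 minus SI10 in undivided tumours, for Smoc2 (0.59) and Prom1 (-0.13) in SI20 minus SI10 in divided tumours. In the female mouse alone, r changed sign for Cd44 between clones at -0.050, Lgr5 with Olfm4 (clone differences) at 0.0045, Lgr5 with Lyz1 (clone differences) at 0.39, Lgr5 with Clu (clone differences) at 0.063, Olfm4 with leukocytes at -0.28, Rgmb with leukocytes at -0.15, Prom1 with enterocytes at -0.0095, Prom1 with fibroblasts and muscle at -0.053, Bmi1 with Paneth cells at 0.14 and Cd44 with enterocytes at -0.19. In the male mouse alone, log2 estimates changed sign for Smoc2 (0.22), Rgmb (0.062) and Bmi1 (-0.10) in undivided tumours minus minor clones, for Smoc2 (0.16) and Bmi1 (-0.0074) in undivided tumours minus major clones, for Bmi1 (-0.11) in SI20 minus SI10 in undivided tumours. In the male mouse alone, r changed sign for Lgr5 with Prom1 (clone differences) at -0.20, Lgr5 with Lyz1 at -0.0011, Lgr5 with Muc2 (clone differences) at 0.14 and Smoc2 with enterocytes at 0.065. With the fibroblast, muscle and leukocyte markers held constant, log2 estimates changed sign for Lgr5 (-0.063), Bmi1 (0.0034) and Ephb2 (-0.049) in major minus minor clones, for Rgmb (0.12) in undivided tumours minus minor clones, for Ascl2 (-0.013), Rgmb (0.17) and Sox9 (0.075) in undivided tumours minus major clones, for Ascl2 (0.18) and Ephb2 (-0.13) in SI20 minus SI10 in undivided tumours, for Ascl2 (-0.013) and Sox9 (0.0036) in the clone difference of female minus male. With Rn18s held constant, log2 estimates changed sign for Lgr5 (-0.25), Rgmb (-0.14) and Ephb2 (-0.039) in major minus minor clones, for Olfm4 (-0.047), Ascl2 (0.063) and Smoc2 (0.053) in undivided tumours minus minor clones, for Rgmb (0.052) in undivided tumours minus major clones, for Ascl2 (0.14) and Ephb2 (-0.089) in SI20 minus SI10 in undivided tumours, for Prom1 (-0.0094) in SI20 minus SI10 in divided tumours, for Sox9 (-0.057) in female minus male in undivided tumours, for Sox9 (0.064) in the clone difference of female minus male. After quantile normalisation, log2 estimates changed sign for Ephb2 (-0.036) in major minus minor clones, for Sox9 (0.015) in the clone difference of female minus male. After quantile normalisation, r changed sign for Lgr5 with Lyz1 (clone differences) at 0.013, Ascl2 with Paneth cells at 0.018 and Smoc2 with enterocytes at 0.0023. Without libraries under 100 counts of Olfm4, log2 estimates changed sign for Olfm4 (-0.063), Smoc2 (0.0047), Rgmb (0.019) and Bmi1 (-0.0087) in undivided tumours minus minor clones, for Bmi1 (-0.0020) in undivided tumours minus major clones, for Ascl2 (0.10) in SI20 minus SI10 in undivided tumours. Without the 2 farthest tumours, r changed sign for Ephb2 between clones at -0.014, Lgr5 with Ephb2 at -0.068, Lgr5 with Lyz1 (clone differences) at 0.13, Lgr5 with Clu (clone differences) at 0.059, Lgr5 with enterocytes at -0.084, Smoc2 with leukocytes at -0.052, Sox9 with enterocytes at -0.018 and Ephb2 with leukocytes at 0.018. Leaving out 1 tumour or library in turn, estimates reached both sides of 0 for Lgr5 (-0.079 to 0.073), Bmi1 (-0.050 to 0.025) and Ephb2 (-0.020 to 0.055) in major minus minor clones, for Olfm4 (-0.23 to 0.44), Ascl2 (-0.14 to 0.038), Smoc2 (-0.16 to 0.070), Rgmb (-0.078 to 0.062) and Bmi1 (-0.0056 to 0.065) in undivided tumours minus minor clones, for Smoc2 (-0.090 to 0.32) and Ephb2 (-0.028 to 0.089) in SI20 minus SI10 in undivided tumours, for Prom1 (-0.060 to 0.21) in SI20 minus SI10 in divided tumours, for Lgr5 (-0.31 to 0.13), Rgmb (-0.16 to 0.066) and Bmi1 (-0.016 to 0.13) in female minus male in undivided tumours, for Lgr5 (-0.12 to 0.22), Ascl2 (-0.023 to 0.23), Rgmb (-0.10 to 0.23) and Sox9 (-0.10 to 0.079) in the clone difference of female minus male.

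Depth could not be read from the scaled values, so that intervals of single counts were not computed, and Olfm4 levels of a few normalised counts carry unknown counting error. With 2 animals, no p-value here describes variation between mice.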
